A study of Mus musculus with 10 samples.

Results

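TRBV15 and TRBV16 are neighbouring variable (V) genes of the mouse T cell receptor (TCR) beta chain, known in the older nomenclature as Vbeta12 and Vbeta11. Their receptors were taken from TCR sequencing libraries of splenic regulatory T (Treg) cells, as every entry with either V name whose CDR3 ended in the residues of a beta joining (J) segment. This gave 21973 entries with 29674 counts, which formed 21972 clonotypes once entries of the same V gene, J gene and CDR3 nucleotide sequence were merged. TRBV15 held 11135 clonotypes and 15355 counts, and TRBV16 held 10837 clonotypes and 14319 counts. Together they made up 11.4% of the 193000 beta (TRB) clonotypes and 11.1% of the 266347 TRB counts. A further 343 entries with these V names, holding 425 counts, had no beta J end and were left out.

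The libraries came from 5 samples of the strain CNS4KO, in which the Foxp3 enhancer CNS4 is deficient, and, as controls, from 5 samples of the strain CNS4Flox, in which it is floxed and which the treatment label calls WT. Foxp3 encodes the transcription factor that defines Treg cells. All samples were Treg cells isolated from spleen and used untreated, and the series states TCR repertoire diversity as its question. The labels give no age, sex, strain background or Cre line, nor whether each replicate is a mouse of its own, so p-values measure the spread between these samples, which may in part be technical. TCR libraries contain no Foxp3 reads, so neither the deletion nor the cell identity was checked here. Libraries held 61793 to 95853 deposited counts, of which 19199 to 34833 were TRB in CNS4KO libraries and 20854 to 32979 in CNS4Flox libraries. CNS4KO 5 and CNS4Flox 3 stood apart in sharing 43 TRBV15 and 38 TRBV16 nucleotide clonotypes, more than any other pair of libraries, and the main values on sharing are given with and without these clonotypes.

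A beta chain is assembled from a V, a diversity (D) and a J segment, and the junction between them encodes CDR3, the loop that contacts antigen. Enzymes trim the segment ends and add bases that no segment encodes, which makes most junctions differ between cells. Superantigens bypass this specificity: they bind the side of the V beta domain and MHC class II at once, so a superantigen can engage T cells by V gene whatever their CDR3. In mice, Vbeta11 and Vbeta12 are classic examples, since endogenous retroviral superantigens delete T cells bearing them in the thymus of strains that express the MHC class II molecule I-E, and such cells persist in strains without I-E. The name superantigen-reactive comes from this background, and no reactivity was measured in these libraries.

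By RefSeq coordinates on GRCm38 (mm10, the build named in the labels), Trbv15 lies on chromosome 6 at 41141211 to 41141658 and Trbv16 at 41151791 to 41152230. Both are annotated as V segments, adjacent to each other and between Trbv14 and Trbv17. The first bases of the CDR3 tell the 2 genes apart, and are shown here for that reason. The most common V ends among clonotypes that kept at least 15 or at least 17 V bases were:
TRBV15, first 15 bases: tgtgccagcagttta
TRBV15, first 17 bases: tgtgccagcagtttagc
TRBV16, first 15 bases: tgtgcaagcagctta
TRBV16, first 17 bases: tgtgcaagcagcttaga
The 15-base ends were present in 91.8% of TRBV15 and 93.5% of TRBV16 clonotypes that kept that many V bases, and the 17-base ends in 77.6% and 91.4%. Those clonotypes were picked because they were already matched to their V gene over that length, so these shares do not test the V names. Of all TRBV15 clonotypes, 99.9% began with the codons for cysteine and alanine written tgtgcc, as did 80.1% of clonotypes of the other TRBV genes. TRBV16 writes the alanine codon as gca, and 99.8% of its clonotypes began tgtgca, against 0.0269% for the other TRBV genes. The TRBV16 start was thus rarely seen under other V names, whereas the TRBV15 start was common to most other V genes and cannot check its name.

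Both genes were in the middle of the V gene range in Treg cells of either group. TRBV15 made up 4.53%, 5.32%, 5.26%, 6.17% and 5.94% of TRB counts in the libraries CNS4KO 1 to 5, and 7.14%, 6.27%, 5.78%, 5.62% and 5.39% in the libraries CNS4Flox 1 to 5. The ranges overlapped, with CNS4Flox 1 the highest library and CNS4KO 1 the lowest. TRBV16 made up 4.50%, 5.61%, 4.42%, 5.65% and 5.57% in the libraries CNS4KO 1 to 5, against 6.09%, 5.42%, 6.04%, 5.05% and 5.16% in the libraries CNS4Flox 1 to 5. CNS4KO 1 and CNS4KO 3 were lowest, and the other 8 libraries lay between 5.05% and 6.09%. By mean share over all libraries, TRBV15 ranked 7 and TRBV16 ranked 10 of 22 TRBV genes. Their neighbours in that order were TRBV1 at 5.81%, TRBV3 at 5.54%, TRBV13-1 at 5.50% and TRBV13-2 at 5.09%, all within the spread between libraries of TRBV15 or TRBV16.

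Neither V gene differed between the groups beyond that spread. TRBV15 averaged 5.44% ± 0.643 of TRB counts in CNS4KO libraries and 6.04% ± 0.696 in CNS4Flox libraries (SD, n = 5 each). The log2 fold change was -0.15 with a standard error of 0.114, and the adjusted p of edgeR's quasi-likelihood test over 22 TRBV genes was 0.746. TRBV16 averaged 5.15% ± 0.630 in CNS4KO libraries and 5.55% ± 0.486 in CNS4Flox libraries, with a log2 fold change of -0.11, a standard error of 0.111 and an adjusted p of 0.746 by the same test. Of all TRBV genes, 0% passed by counts, and 1 had an unadjusted p under 0.05. DESeq2 called 1 of the 22, TRBV12-1. When each clonotype was counted once, 3 of 22 TRBV genes passed, or 13.6%, and TRBV15 and TRBV16 were not among them. Their log2 fold changes by distinct clonotypes were -0.14 with an adjusted p of 0.397 and -0.04 with an adjusted p of 0.753, by edgeR.

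**Figure D1:**
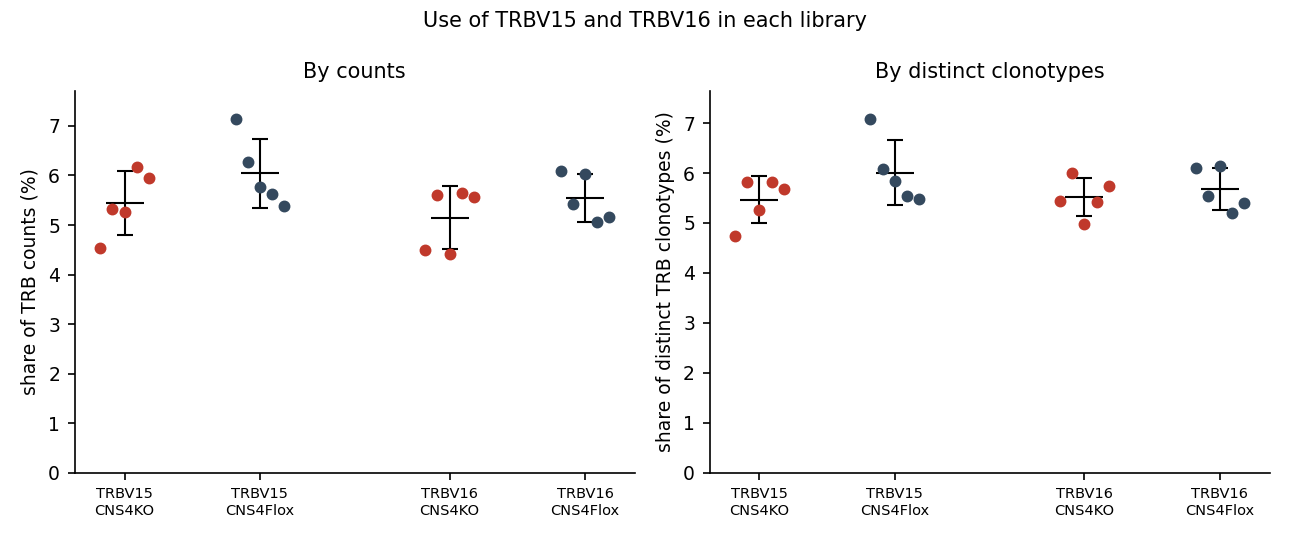
Share of TRB counts (left, %) and of distinct TRB clonotypes (right, %) held by TRBV15 and TRBV16, with 1 point per library, the mean as a line and the SD as error bars (n = 5 per group). CNS4KO and CNS4Flox libraries overlap for both genes, and CNS4Flox 1 is highest for TRBV15 at 7.14% of counts.

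The V genes whose share of TRB counts moved most like that of TRBV15 over the 10 libraries were TRBV13-1 (Pearson r = 0.77) and TRBV16 (r = 0.76). For TRBV16 they were TRBV13-1 (r = 0.90) and TRBV1 (r = 0.79). These are descriptions of 10 libraries chosen from 20 genes compared, and the points are shares of a single total per library, so that a rise of any gene lowers the rest.

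J segments differ in how often they are joined, and both genes paired most often with TRBJ2-7, the last segment of the second J cluster. TRBJ2-7 was used by 25.6% of TRBV15 clonotypes on average over the libraries and by 21.9% of TRBV16 clonotypes, against 19.1% for the other TRBV genes. The lowest TRBV15 library, at 22.8%, lay above the highest library of the other genes, at 20.5%, whereas TRBV16 libraries ran from 19.3% to 24.1% and overlapped them. After TRBJ2-7, TRBV15 paired most with TRBJ2-4 at 12.9% and TRBJ1-1 at 12.4%, and least with TRBJ1-6 at 1.48%. TRBV16 paired next with TRBJ2-5 at 13.1% and TRBJ2-4 at 12.6%, and least with TRBJ1-5 at 2.27%. TRBJ2-5 made up 9.56% of TRBV15 clonotypes, 8.18% to 10.7% over libraries, below its 11.1% to 14.4% of TRBV16 clonotypes in every library. TRBJ1-2 was used by 2.09% of TRBV15 and 3.24% of TRBV16 clonotypes, against 4.69% for the other genes, again with no overlap between the libraries of TRBV15, 1.40% to 2.72%, and those of the other genes, 4.34% to 4.93%. TRBJ1-6 was likewise used by 3.76% of clonotypes of the other genes.

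Summed over the second cluster, TRBJ2 segments were used by 73.1% of TRBV15 clonotypes (70.04% to 75.2% over libraries) and by 69.9% of TRBV16 clonotypes (67.1% to 72.2%), against 68.0% for the other TRBV genes (66.6% to 69.9%). Within libraries, TRBV15 exceeded the other genes by 5.11 ± 1.54 percentage points (SD, n = 10 libraries), in 10 of 10 libraries, with an adjusted p of 0.00586 by a two-sided exact sign-flip permutation test. The same test gave an excess of 1.86 ± 1.35 points for TRBV16, in 9 of 10 libraries, with an adjusted p of 0.00732. TRBV15 exceeded TRBV16 by 3.25 ± 1.71 points in 10 of 10 libraries, with an adjusted p of 0.00586 in that exact test, but without clonotypes of count 1 this difference was 1.29 points and did not pass (adjusted p = 0.363).

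No J pairing of either gene passed the test between CNS4KO and CNS4Flox libraries. Counts of each V gene were tested with all 12 J segments, among 253 V-J pairs of the whole table, of which 1, or 0.395%, passed edgeR's quasi-likelihood test. Neither TRBV15 nor TRBV16 had a pair past the threshold, and by counts none of their pairs had an unadjusted p under 0.05. DESeq2 called 0 of these pairs as well. By distinct clonotypes 0 passed too, and TRBV15 with TRBJ2-4 had an unadjusted p of 0.0186, with a log2 fold change of -0.29 and an adjusted p of 0.358 by edgeR. By counts, the pair with the smallest p for TRBV15 was TRBJ2-4, with a log2 fold change of -0.23 and an adjusted p of 0.757. For TRBV16 it was TRBJ1-1, with a log2 fold change of -0.22 and the same adjusted p. The median log2 fold change was -0.11 over the TRBV15 pairs and -0.10 over the TRBV16 pairs, against -0.05 over all pairs tested, with 9 of 12 and 12 of 12 pairs lower in CNS4KO libraries. These signs depended on the scaling: with the V gene's own total as library size, 6 TRBV15 and 5 TRBV16 pairs were lower, with medians of 0.03 and 0.02, and with DESeq2 6 and 9 were lower. Pairs of a V gene share its total, so these signs are not independent.

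**Figure D2:**
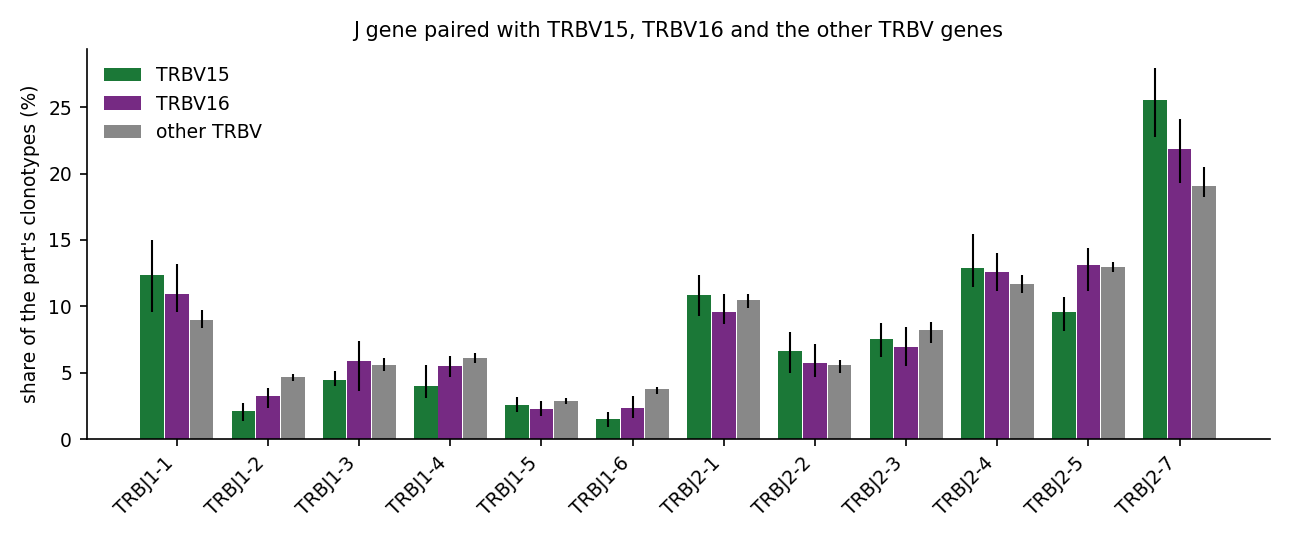
Share of distinct clonotypes (%) that pair with each J segment, for TRBV15, TRBV16 and the other TRBV genes. Bars are means over 10 libraries and vertical lines run from the lowest to the highest library. TRBJ2-7 is the tallest bar of each, at 25.6%, 21.9% and 19.1%.

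The receptors of the 2 genes differed in CDR3 length. TRBV15 CDR3s averaged 13.4 residues and most often had 13, in 33.4% of clonotypes, while TRBV16 CDR3s averaged 13.7 and most often had 14, in 32.5%. CDR3s of the other TRBV genes also averaged 13.7 residues and most often had 14, in 30.5%. Within libraries TRBV15 was shorter than the other genes by a mean of 0.307 residues (mean difference -0.307 ± 0.0369, SD, n = 10), in 10 of 10 libraries, with an adjusted p of 0.00586 by the exact sign-flip permutation test. The difference between TRBV15 and TRBV16 was -0.303 ± 0.0556 residues, negative in 10 of 10 libraries, with an adjusted p of 0.00586. TRBV16 and the other genes differed by -0.00387 ± 0.0449 residues, with 5 libraries on either side and an adjusted p of 0.844.

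The number of V bases left after trimming is given beside the length as a description, with no test. TRBV15 kept 13.1 V bases in the CDR3 on average, TRBV16 14.2 and the other genes 13.5. The most common value for TRBV15 was 11 kept bases, in 24.8% of its clonotypes, which ends inside the codon for the second serine of the germline start CASS. TRBV16 had a pair of common values, 12 bases in 22.7% and 17 bases in 19.7%, so that a germline leucine was often present. CDR3s starting CASSL made up 51.6% of TRBV16 clonotypes, against 35.3% for TRBV15 and 14.7% for the other genes. In 12.6% of TRBV15 clonotypes the start was CASR, with arginine in place of that second serine, against 3.04% for TRBV16 and 3.59% for the other genes. By library the CASSL share ran from 33.1% to 38.2% for TRBV15 and from 48.7% to 54.1% for TRBV16, with no overlap.

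**Figure D3:**
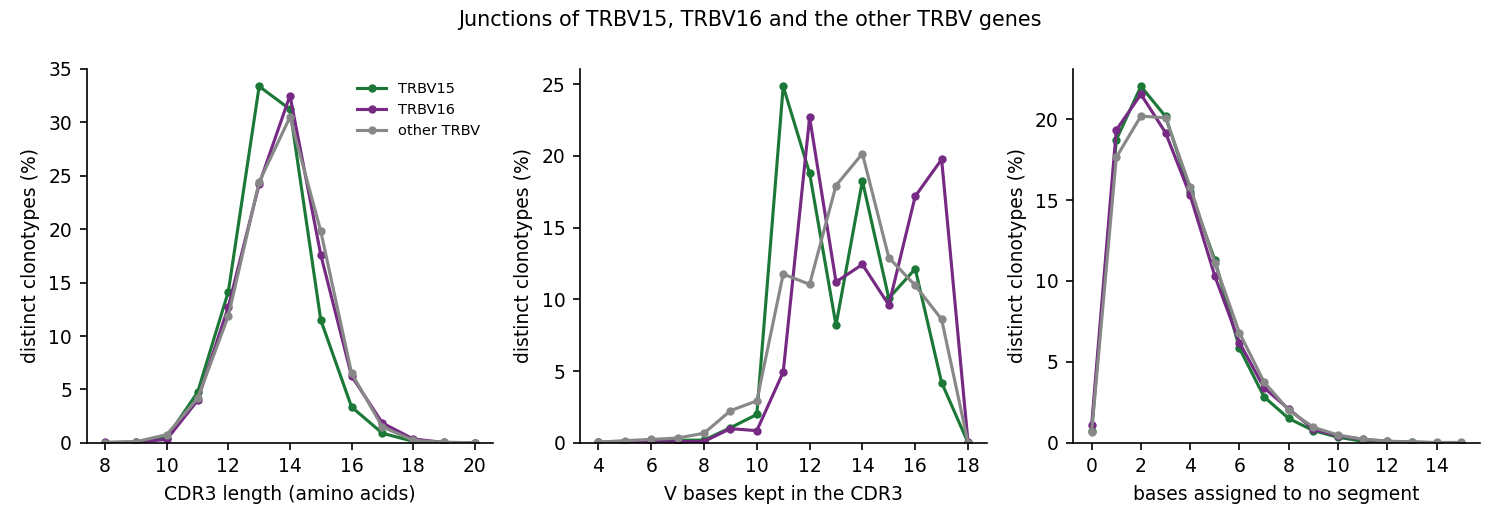
Distribution of CDR3 length (left, amino acids), V bases kept in the CDR3 (middle) and CDR3 bases assigned to no segment (right) over distinct clonotypes of all libraries, as a percentage of the clonotypes of each gene. TRBV15 peaks at 13 residues and 11 V bases, and TRBV16 at 14 residues with V base peaks at 12 and 17.

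Inserted bases were counted as CDR3 bases that the deposited positions assign to no V, D or J segment, leaving out TRBJ1-6, whose J positions belonged to another J gene. TRBV15 clonotypes had 3.22 such bases, TRBV16 clonotypes 3.26 and clonotypes of the other genes 3.40, as means over libraries. The difference from the other genes was -0.187 ± 0.0401 bases for TRBV15, negative in 10 of 10 libraries (SD, n = 10, adjusted p = 0.00586 in the exact sign-flip permutation test). For TRBV16 it was -0.139 ± 0.0756 bases, negative in 9 of 10 libraries, with an adjusted p of 0.00732. With TRBJ1-6 kept, these differences were -0.483 and -0.348 bases. TRBV15 and TRBV16 differed by -0.0482 ± 0.0854 bases, with an adjusted p of 0.125, which became -0.134 with an adjusted p of 0.0146 when TRBJ1-6 was kept, -0.101 with an adjusted p of 0.00977 when clonotypes were weighted by count and -0.0665 with an adjusted p of 0.0117 without CNS4KO 4.

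Junctions without such bases were rare in the tables, at 0.719% of TRBV15 clonotypes, 1.12% of TRBV16 clonotypes and 0.696% of clonotypes of the other genes. TRBV16 exceeded the other genes by 0.425 ± 0.291 percentage points, in 9 of 10 libraries, with an adjusted p of 0.00732 by the exact sign-flip permutation test. TRBV15 minus TRBV16 gave -0.403 ± 0.337 points (lower for TRBV15 in 8 of 10 libraries, adjusted p = 0.0130, exact test), while TRBV15 and the other genes differed by 0.0228 ± 0.324 points, with an adjusted p of 0.844. Without clonotypes of count 1, neither the TRBV16 excess, at 0.247 points, nor the difference between the 2 genes, at -0.298 points, passed, each with an adjusted p of 0.466. These shares rest on entries with no D match. In every entry with a D match, at least 1 base stood between the D end and the J start, and that gap was exactly 1 base in 54.6% of TRBV15 and 53.0% of TRBV16 clonotypes with a D match. When that base was not counted, the shares without inserted bases were 18.8% for TRBV15, 18.99% for TRBV16 and 17.5% for the other genes. TRBV15 then exceeded the other genes by 1.36 points with an adjusted p of 0.0439, TRBV16 by 1.51 points with an adjusted p of 0.0110, and the difference between the 2 genes was -0.152 points with an adjusted p of 0.844. No D segment was matched in 4.01% of TRBV15, 5.34% of TRBV16 and 3.51% of other clonotypes, and TRBD1 was matched in 59.4%, 61.0% and 62.4%.

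With each clonotype counted once, CDR3 length and inserted bases did not pass the test between the groups for either gene. TRBV15 CDR3s averaged 13.44 ± 0.0309 residues in CNS4KO libraries and 13.43 ± 0.0250 in CNS4Flox libraries, with an adjusted p of 0.968 by a two-sided exact permutation test. TRBV16 CDR3s averaged 13.75 ± 0.0695 residues in CNS4KO libraries and 13.73 ± 0.0308 in CNS4Flox libraries, with an adjusted p of 0.939 in that exact test. Inserted bases averaged 3.20 ± 0.0398 in CNS4KO and 3.23 ± 0.0365 in CNS4Flox libraries for TRBV15 (exact permutation, adjusted p = 0.289), and 3.27 ± 0.127 in CNS4KO and 3.26 ± 0.0139 in CNS4Flox libraries for TRBV16 (adjusted p = 0.968). The share of TRBV16 clonotypes without inserted bases was 1.27% ± 0.290 in CNS4KO and 0.968% ± 0.248 in CNS4Flox libraries (exact permutation, adjusted p = 0.208). That share for TRBV15 was 0.709% ± 0.428 in CNS4KO and 0.729% ± 0.199 in CNS4Flox libraries (adjusted p = 0.968). Weighted by count, 2 of these values passed the exact permutation test: TRBV15 inserted bases, with a difference of -0.0853 against -0.0323 unweighted (adjusted p = 0.0222), and the share of TRBV16 without inserted bases, with a difference of 0.317 points (adjusted p = 0.0417).

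TRBV15 and TRBV16 repertoires were less diverse in CNS4KO than in CNS4Flox libraries. At 1022 TRBV15 counts, the total of the shallowest library, CNS4KO replicates 1 to 5 held an expected 677, 803, 720, 722 and 806 distinct TRBV15 clonotypes. CNS4Flox replicates 1 to 5 held 917, 877, 864, 856 and 870. Every CNS4KO library lay below every CNS4Flox library, and the means were 746 ± 56.7 in CNS4KO and 877 ± 23.6 in CNS4Flox libraries (SD, n = 5 each). The difference of -131 clonotypes had a p of 0.00794 in the two-sided exact permutation test, the smallest that 252 assignments allow, and an adjusted p of 0.0278 over 14 values.

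At 1054 TRBV16 counts, CNS4KO replicates 1 to 5 held 786, 813, 787, 715 and 856 distinct TRBV16 clonotypes, against 933, 916, 882, 903 and 912 in CNS4Flox replicates 1 to 5. Again no library of either group reached into the range of the other. The means were 791 ± 51.5 in CNS4KO and 909 ± 18.7 in CNS4Flox libraries, with the same exact p of 0.00794 and adjusted p of 0.0278. Without clonotypes of count 1, which were most clonotypes, the equal depth was reset to the smallest remaining total, a lower one. The differences were then 17.1 clonotypes for TRBV15 and 19.9 for TRBV16, both positive. Their adjusted p-values were 0.726 and 0.689 in the exact permutation test. As both the depth and the clonotypes differ, these values do not show what the order above rests on. At full depth the differences were -243 and -175 clonotypes with adjusted p-values of 0.306 and 0.367. Without CNS4KO 4 or CNS4Flox 1, 2, 4 or 5 in turn, the equal-count differences kept their sign, at -136 to -121 for TRBV15 and -123 to -98.7 for TRBV16, but their adjusted p-values rose to between 0.0556 and 0.111.

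The 10 largest clonotypes took more of each gene's counts in CNS4KO libraries. This share was taken over all counts of the gene in a library, not at equal counts. Those totals ran from 1022 to 2149 for TRBV15 and from 1054 to 1991 for TRBV16, and the part of depth was not tested. For TRBV15 the 10 largest held 5.23%, 5.58%, 5.59%, 8.24% and 5.06% of the gene's counts in the libraries CNS4KO 1 to 5, against 2.84%, 3.77%, 2.99%, 4.35% and 3.62% in the libraries CNS4Flox 1 to 5. For TRBV16 they held 5.10%, 5.29%, 5.40%, 12.6% and 5.40% in the libraries CNS4KO 1 to 5, against 2.95%, 3.35%, 5.07%, 4.08% and 3.42% in the libraries CNS4Flox 1 to 5. For both genes all 5 CNS4KO libraries lay above all 5 CNS4Flox libraries, narrowly so for TRBV16, where CNS4KO 1 at 5.10% stood next to CNS4Flox 3 at 5.07%. The means were 5.94% ± 1.30 in CNS4KO and 3.52% ± 0.613 in CNS4Flox libraries for TRBV15, and 6.75% ± 3.25 in CNS4KO and 3.77% ± 0.831 in CNS4Flox libraries for TRBV16 (SD, n = 5 each). Each difference had an adjusted p of 0.0278 by the exact permutation test. CNS4KO 4 was the highest library for both genes: without it the differences were 1.85 points for TRBV15 and 1.52 points for TRBV16, against 2.42 and 2.97 points with it, both with an adjusted p of 0.0556. Without CNS4Flox 1, 2, 4 or 5 in turn, the differences were 2.26 to 2.63 points for TRBV15 and 2.77 to 3.05 points for TRBV16. Their adjusted p-values rose up to 0.111 and 0.148. For TRBV15 the unadjusted exact p stayed at 0.00794 each time, so its rise came from the adjustment alone. For TRBV16 the unadjusted exact p was 0.0317 to 0.0635. Without clonotypes of count 1 the differences were 0.753 points for TRBV15 and 1.15 points for TRBV16, and neither passed (adjusted p = 0.726 each).

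**Figure D4:**
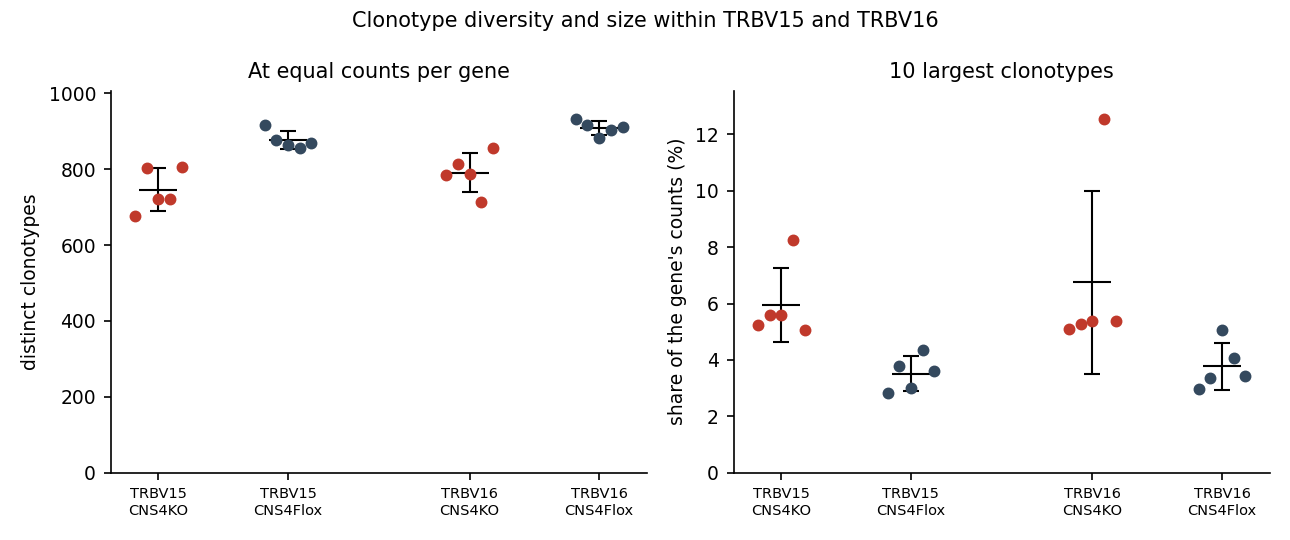
Distinct clonotypes expected at equal counts (left, 1022 counts for TRBV15 and 1054 for TRBV16) and the share of the gene's counts held by its 10 largest clonotypes (right, %, at each library's full counts), with 1 point per library, means as lines and SD as error bars (n = 5 per group). CNS4KO libraries lie below all CNS4Flox libraries on the left and above them on the right, and CNS4KO 4 stands highest on the right at 8.24% and 12.6%.

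Counts per clonotype passed the test between groups for TRBV16, with higher values in CNS4KO libraries, but not for TRBV15. The TRBV15 difference was nonetheless the larger, at 0.283 against 0.219 counts. These means were taken over all counts of the gene in a library, not at equal counts, and the part of depth was not tested. CNS4KO 2 had the fewest TRBV15 counts of any library, 1022. TRBV15 clonotypes had 1.61, 1.27, 1.53, 1.76 and 1.46 counts on average in the libraries CNS4KO 1 to 5, against 1.17, 1.30, 1.33, 1.22 and 1.20 in the libraries CNS4Flox 1 to 5. CNS4KO 2 fell within the CNS4Flox range, and the difference between 1.53 ± 0.179 in CNS4KO and 1.24 ± 0.0690 in CNS4Flox libraries missed the threshold (exact permutation p = 0.0238, adjusted p = 0.0556), although it passed without CNS4KO 2, CNS4KO 5 or CNS4Flox 3, at differences of 0.347, 0.299 and 0.306 counts and adjusted p-values of 0.0222, 0.0476 and 0.0476. With amino acid clonotypes it passed as well, at 0.288 counts and an adjusted p of 0.0476 in the exact test. TRBV16 clonotypes had 1.39, 1.30, 1.36, 1.73 and 1.36 counts in the libraries CNS4KO 1 to 5, against 1.16, 1.23, 1.33, 1.17 and 1.16 in the libraries CNS4Flox 1 to 5. The means of 1.43 ± 0.172 in CNS4KO and 1.21 ± 0.0716 in CNS4Flox libraries differed with an adjusted p of 0.0444 in the exact permutation test. Without CNS4KO 4 the TRBV16 difference was 0.143 counts, against 0.219 with it, with an adjusted p of 0.0667, and the call was also lost without CNS4KO 1 or 3 or CNS4Flox 1, 2, 4 or 5, at adjusted p-values up to 0.111 and differences of 0.206 to 0.237. Without clonotypes of count 1 the TRBV16 difference was 0.342 counts and did not pass (adjusted p = 0.259). Whether the 2 genes differed from each other in this was not tested.

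Clonotypes of the other TRBV genes had 1.54 ± 0.139 counts in CNS4KO and 1.24 ± 0.0719 in CNS4Flox libraries. Here too the groups did not overlap, with 1.40 to 1.71 counts in CNS4KO and 1.16 to 1.35 in CNS4Flox libraries, so higher counts per clonotype were not limited to the 2 genes. The group difference of TRBV15 minus that of the other genes was -0.0182 counts per clonotype, and that of TRBV16 minus the other genes was -0.0827, with adjusted p-values of 0.992 and 0.694 by the exact permutation test. Over 5 measures and both genes, 0 of 10 such differences passed, and 0 had an unadjusted p under 0.05. Those measures were CDR3 length, inserted bases, junctions without inserted bases, TRBJ2 share and counts per clonotype. Diversity and the share of the 10 largest clonotypes were not among them. Within libraries, TRBV15 clonotypes had 0.0662 ± 0.0778 more counts than TRBV16 clonotypes, in 9 of 10 libraries, with an adjusted p of 0.0176 in the exact sign-flip permutation test. Without clonotypes of count 1 that difference was -0.000678 counts, with an adjusted p of 0.992. Against the other genes, TRBV15 differed by -0.00425 counts per clonotype and TRBV16 by -0.0705, with adjusted p-values of 0.844 and 0.0746 in that exact test. Without clonotypes of count 1 both were lower than the other genes, each by -0.260 counts, and passed (adjusted p = 0.00586 and 0.0146). Cell numbers are not given in the sources used here, so a clonotype held by more cells and one with more RNA per cell or more amplification cannot be told apart.

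Large clonotypes were few. Those with at least 10 counts numbered 17 of 11135 for TRBV15 and 22 of 10837 for TRBV16, against 590 of 171028 for the other TRBV genes. The largest had 44, 53 and 506 counts in turn. CNS4KO 4 alone held 9 of the large TRBV15 and 12 of the large TRBV16 clonotypes. Next came CNS4KO 5 with 5 and 4, while CNS4Flox libraries held 1 for TRBV15, in CNS4Flox 2, and 4 for TRBV16, all in CNS4Flox 3. The largest TRBV15 clonotype of each library had 10, 7, 10, 44 and 15 counts in the libraries CNS4KO 1 to 5, against 6, 18, 8, 7 and 5 in the libraries CNS4Flox 1 to 5. The largest TRBV16 clonotype had 11, 9, 13, 53 and 17 counts in the libraries CNS4KO 1 to 5, against 8, 9, 19, 7 and 5 in the libraries CNS4Flox 1 to 5. CNS4KO 4 was highest for both genes and also had the most TRB counts, 34833, of any library, and the part of depth in these sizes was not tested.

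The 2 largest clonotypes of each gene are shown as CDR3 nucleotides, because they carry the CNS4KO 4 values above. Capitals mark bases that the deposited positions assign to no segment, which include the base that always stands between D and J.
TRBV15 with TRBJ2-5, 44 counts: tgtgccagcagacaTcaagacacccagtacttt
TRBV15 with TRBJ1-2, 25 counts: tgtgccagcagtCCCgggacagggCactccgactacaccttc
TRBV16 with TRBJ2-5, 53 counts: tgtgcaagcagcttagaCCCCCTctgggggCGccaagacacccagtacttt
TRBV16 with TRBJ2-7, 42 counts: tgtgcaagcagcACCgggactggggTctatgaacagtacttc
All 4 came from CNS4KO 4 and were found in 0 other libraries. The first encodes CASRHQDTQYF, a short CDR3 of 11 residues with 1 inserted base, and the third is the longest of the 4 at 17 residues with 8 inserted bases. The other two each encode 14 residues, in TRBV15 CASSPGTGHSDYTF. At 0.152% of the TRB counts of its library, the largest TRBV16 clonotype remained a small part of the repertoire.

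Most receptors were seen in a single library. Of 9021 TRBV15 clonotypes defined by J gene and CDR3 amino acids, 13.6% were found in at least 2 libraries and 56 in at least 5. Of 9154 TRBV16 clonotypes, 11.1% were found in at least 2 libraries and 37 in at least 5. By nucleotide sequence, 4.22% of 10642 TRBV15 and 3.78% of 10392 TRBV16 clonotypes were found in at least 2 libraries, and 0 and 1 in at least 5. The same J gene and CDR3 amino acids occurred with both V genes in 1416 cases.

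The most widely shared CDR3 was the same for both genes, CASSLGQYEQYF with TRBJ2-7. With TRBV15 it was found in 8 libraries, 4 CNS4KO and 4 CNS4Flox, at 14 counts in all and in 6 nucleotide versions. With TRBV16 it was found in 9 libraries, 4 CNS4KO and 5 CNS4Flox, at 15 counts in all and in 9 nucleotide versions. The next 4 TRBV15 clonotypes, each in 7 libraries, were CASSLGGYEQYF and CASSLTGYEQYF with TRBJ2-7, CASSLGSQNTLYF with TRBJ2-4 and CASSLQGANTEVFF with TRBJ1-1. For TRBV16 they were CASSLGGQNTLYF with TRBJ2-4 and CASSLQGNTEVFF with TRBJ1-1, each in 8 libraries, and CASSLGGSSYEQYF with TRBJ2-7 and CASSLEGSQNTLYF with TRBJ2-4, each in 7. All 10 began CASSL, had 12 to 14 residues, and reached at most 5 counts in any library, so their absence from a library was not distinguishable from too few counts. The nucleotide version found in the most libraries is shown for 6 of them, with capitals again for bases assigned to no segment. The first holds 4 such bases and the others hold 1 or 2.
TRBV15 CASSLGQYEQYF: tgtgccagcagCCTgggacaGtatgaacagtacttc
TRBV15 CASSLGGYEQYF: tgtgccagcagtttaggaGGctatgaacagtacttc
TRBV15 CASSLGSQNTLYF: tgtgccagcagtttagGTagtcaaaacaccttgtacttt
TRBV16 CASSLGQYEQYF: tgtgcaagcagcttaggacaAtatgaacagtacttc
TRBV16 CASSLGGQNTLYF: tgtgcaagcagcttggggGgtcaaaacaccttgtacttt
TRBV16 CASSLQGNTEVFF: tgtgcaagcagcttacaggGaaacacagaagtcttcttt
The TRBV16 version of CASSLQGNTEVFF was itself present in 5 libraries, the only nucleotide clonotype of either gene to reach that number. No TRBV15 nucleotide clonotype was found in more than 4 libraries.

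Shared receptors had fewer inserted bases than private ones, as a description over entries that share libraries. TRBV15 entries whose amino acid clonotype was in at least 5 libraries had 2.08 inserted bases on average, against 3.59 for those in 1 library. For TRBV16 these averages were 1.58 and 3.63 bases. Shared entries were also shorter, at 12.98 against 13.6 residues for TRBV15 and 12.90 against 13.90 residues for TRBV16. TRBJ2-7 was used by 52.7% of shared against 22.6% of private TRBV15 entries, and by 39.1% of shared against 20.0% of private TRBV16 entries. No D was matched in 9.46% of shared and 2.56% of private TRBV15 entries, and in 15.2% of shared and 3.33% of private TRBV16 entries. Counts per entry were close, at 1.46 for shared and 1.35 for private TRBV15 entries, and at 1.39 for shared and 1.30 for private TRBV16 entries.

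Sharing did not pass the test between groups. The share of a library's TRBV15 nucleotide clonotypes found in another library was 8.41%, 8.84%, 8.44%, 9.16% and 10.9% in the libraries CNS4KO 1 to 5, against 7.56%, 6.57%, 8.75%, 7.60% and 8.56% in the libraries CNS4Flox 1 to 5. The ranges overlapped, with means of 9.15% ± 1.04 in CNS4KO and 7.81% ± 0.877 in CNS4Flox libraries and an adjusted p of 0.127 by the exact permutation test. For TRBV16 the means were 8.10% ± 0.680 in CNS4KO and 7.34% ± 0.777 in CNS4Flox libraries, with an adjusted p of 0.222. Defined by amino acids, the TRBV15 difference was 3.01 percentage points and passed, with an adjusted p of 0.0222 in the exact test. It also passed by nucleotides without CNS4KO 5 (1.35 points, adjusted p = 0.0444) or without CNS4Flox 3 (1.01 points, adjusted p = 0.0476), and did not pass when only libraries of the same group were searched (0.459 points, adjusted p = 0.0952). CNS4KO libraries held 761 to 1309 TRBV15 clonotypes and CNS4Flox libraries 961 to 1491, and the share was not brought to equal numbers.

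CNS4KO 5 and CNS4Flox 3, from different groups, shared more nucleotide clonotypes than any other pair of libraries. They had 43 TRBV15 clonotypes in common, 3.28% of those of CNS4KO 5 and 3.01% of those of CNS4Flox 3, and 38 TRBV16 clonotypes, 2.87% and 2.53% of theirs. The other 44 pairs had 4 to 21 TRBV15 clonotypes in common, with a median of 11, and 4 to 23 TRBV16 clonotypes, with a median of 10.5. Pairs within CNS4KO shared a median of 9 TRBV15 and 8 TRBV16 clonotypes, pairs within CNS4Flox 12 and 10.5, and pairs between the groups 12 and 11. These numbers were not brought to equal library sizes. CNS4KO libraries held fewer clonotypes on average, 992 TRBV15 and 996 TRBV16, against 1235 and 1171 in CNS4Flox libraries. With the clonotypes held by both CNS4KO 5 and CNS4Flox 3 left out, the group differences in sharing were 1.25 points for TRBV15 and 0.550 points for TRBV16, with adjusted p-values of 0.0635 and 0.433 by the exact permutation test. Found in at least 2 libraries were then 13.3% of TRBV15 and 10.9% of TRBV16 amino acid clonotypes, and 3.83% and 3.43% of nucleotide clonotypes. Amino acid clonotypes in at least 5 libraries numbered 53 for TRBV15 and 30 for TRBV16, and their entries averaged 2.08 and 1.65 inserted bases, against 3.59 and 3.63 for those in 1 library. Of the 10 most widely shared clonotypes, TRBV16 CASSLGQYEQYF was then in 7 libraries and TRBV16 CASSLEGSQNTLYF in 6, and the other 8 were in as many libraries as before.

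**Figure D5:**
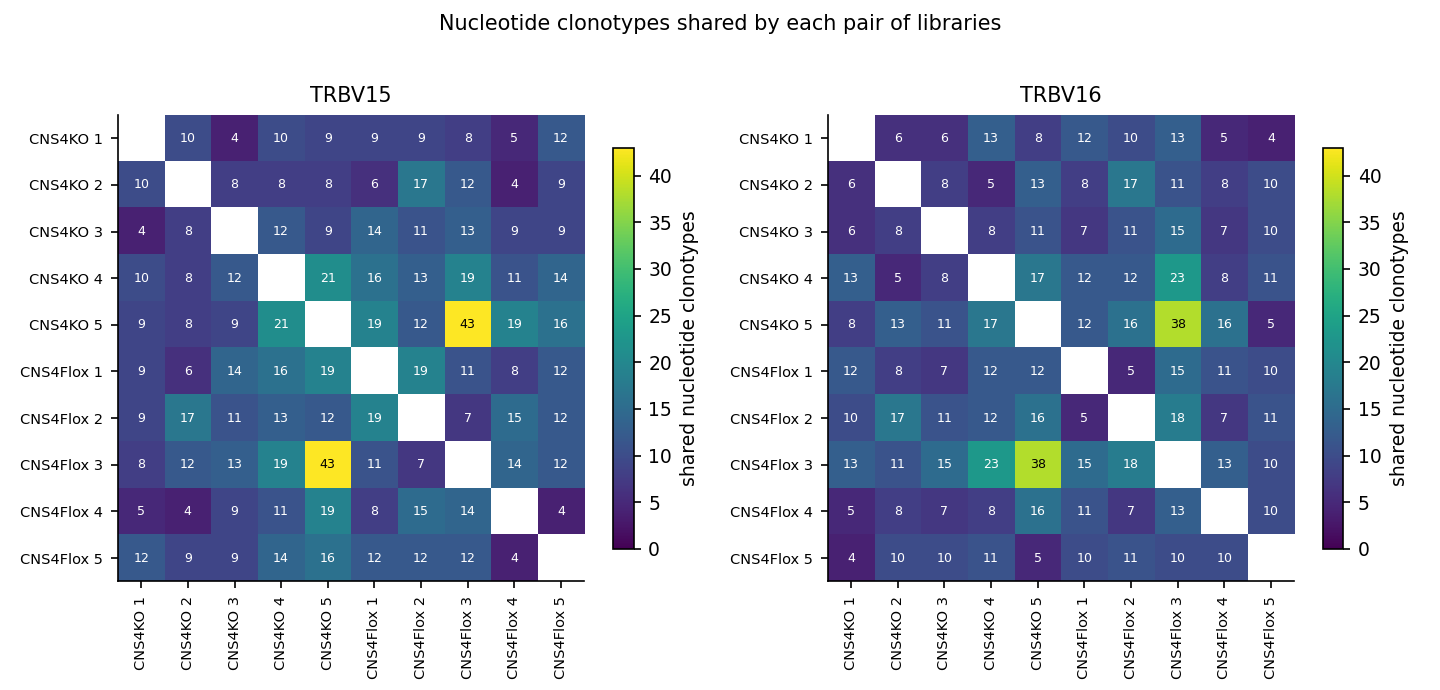
Number of nucleotide clonotypes in common between each pair of libraries, for TRBV15 (left) and TRBV16 (right), with the number written in each cell and coded by colour. CNS4KO 5 and CNS4Flox 3 stand out with 43 and 38, and every other pair has at most 21 for TRBV15 and 23 for TRBV16.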

How the data were processed

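TCR alpha and beta transcripts of splenic Treg cells were sequenced in 5 CNS4KO and 5 CNS4Flox samples. RNA extraction used TRIzol, followed by template-switch reverse transcription and a pair of amplification steps, per the labels' protocols; mm10 is named in the submitters' processing notes. The aligner and clonotype caller are not given in the sources used here. Per the file headers, each deposited table gives a count per clonotype, the fraction of the library's total count, the CDR3, the V, D and J names and segment positions, which are other whole numbers counted from 0. Whether a deposited count is a read or a molecule is not stated. Replicates were numbered in accession order.

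All entries carried beta names, so beta chains were taken by their J end of 4 residues. Entries ending PLYF were set to TRBJ1-6, since 401 of 418 among the 2 genes were named TRBJ2-5. Inserted bases were those between segment positions, with overlaps set to 0. TRBJ1-6 was left out of inserted bases, a choice made after values were seen. Diversity was the rarefied expectation at the smallest total.

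V genes and V-J pairs that reached 10 counts in 5 or more samples were tested over the whole table with edgeR 4.0.16 (quasi-likelihood, TRB total as library size, no TMM) in R 4.3.3. DESeq2 1.42.0 was an alternative. Single values were compared by two-sided exact permutation over 252 assignments (smallest p 0.00794), adjusted over 14, and within libraries by exact sign-flip over 1024 assignments (smallest p 0.00195), adjusted over 15. Comparisons of gene minus other were adjusted over 10. Adjustment was Benjamini-Hochberg, with a threshold of 0.05. The procedures were tested on simulated data. The V-J changes simulated were larger than those of the 2 genes here, so this does not show the power for small changes. Python 3.11.15, pandas 2.3.3, numpy 2.4.6, scipy 1.17.1 and matplotlib 3.10.9 were used.

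Named J segments are the 3 most and the 1 least used with each gene, to which TRBJ1-2 and TRBJ2-5 were added for TRBV15 after values were seen. Named clonotypes are the 5 found in most libraries and the 2 largest per gene. The genes, measures and rules were chosen with earlier results of these data known. Alternatives were another clonotype definition, no clonotypes of count 1, no J end filter, count weighting, full depth, other normalisations and filters, and leaving out samples.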

Additional observations from a re-analysis of the deposited data

Results flagged for a closer look

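CNS4KO 4 stood apart from the other 4 CNS4KO libraries in 4 of 20 values examined. In these, its gap to the nearest library was too large a part of the group's range by Dixon's criterion. The same values were examined in CNS4Flox libraries, which made 40 groups of 5 libraries, and no other library was flagged. Chance flags about 1 in 20 such groups. The 10 largest TRBV15 clonotypes held 8.24% of the gene's counts in CNS4KO 4, against at most 5.59% in the other CNS4KO libraries. The 10 largest TRBV16 clonotypes held 12.6%, against at most 5.40%. TRBV16 had 1.73 counts per clonotype there, against at most 1.39. TRBJ2 segments were used by 72.2% of its TRBV16 clonotypes, against at most 70.2%.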

How the results depend on the processing

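Over 36 results, 517 values were recomputed under alternatives; 418 kept their direction and their side of the threshold, 41 lost it, 16 gained it and 42 changed sign. No paired analysis was possible because replicate numbers follow accession order and mark no shared litter, animal or day. The cause of these changes was not tested. Usage of both genes stayed below the threshold in every alternative, with the distinct TRBV16 log2 fold change turning to 0.035 when no beta J end was required, and J pairs past the threshold stayed at 0.

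Without clonotypes of count 1, equal-count diversity was taken at a lower depth, with group differences of 17.1 (TRBV15) and 19.9 (TRBV16). Differences in the 10 largest clonotypes were 0.753 and 1.15 points and in TRBV16 counts per clonotype 0.342. All of these were no longer past the threshold. In TRBV15 length the difference was -0.00989 residues and in TRBV16 sharing -0.658 points. Within libraries, shares without inserted bases then differed by -0.0508 (TRBV15 minus other), 0.247 (TRBV16 minus other) and -0.298 points (TRBV15 minus TRBV16), and the TRBJ2 share by 1.29 points between the genes, of which none passed. Counts per clonotype differed by -0.260 for TRBV15 and -0.260 for TRBV16 against other genes. Both of these passed the exact sign-flip permutation test only in this setting, with adjusted p-values of 0.00586 and 0.0146 against 0.844 and 0.0746 with all clonotypes. Between the 2 genes counts per clonotype differed by -0.000678 and did not pass. At full depth the diversity differences were -243 and -175. With amino acid clonotypes, TRBV15 counts per clonotype differed by 0.288, TRBV15 sharing by 3.01 points and TRBV16 inserted bases by -0.00483.

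Weighted by count, group differences were -0.0240 residues in TRBV15 length, -0.0853 in TRBV15 inserted bases (adjusted p = 0.0222, exact permutation) and 0.317 points in TRBV16 junctions without inserted bases (adjusted p = 0.0417). Within libraries they were 0.00787 residues for TRBV16 minus other, -0.101 inserted bases for TRBV15 minus TRBV16 and -0.0297 points without inserted bases for TRBV15 minus other. Added after the data were seen, keeping TRBJ1-6 gave 0.0117 for the group difference in TRBV15 inserted bases and -0.134 for TRBV15 minus TRBV16. Not counting 1 base between D and J, also added later, gave group differences of 2.12 (TRBV15) and -0.290 points (TRBV16) in junctions without inserted bases, 1.36 for TRBV15 minus other and -0.152 for TRBV15 minus TRBV16.

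Without both CNS4KO 5 and CNS4Flox 3, 4 against 4 libraries allow a p no smaller than 0.0286. It was reached by 5 of the 14 group differences and adjusted to 0.08, so none of them passed, while 10 of the 15 within-library differences still passed. The differences were -149 and -141 in diversity, 2.51 and 3.63 points in the 10 largest clonotypes, 0.265 in TRBV16 counts per clonotype, -0.00852 residues in TRBV15 length, 0.00958 points in TRBV15 junctions without inserted bases, -0.00344 in TRBV16 inserted bases, and -0.0194 points for TRBV15 minus other in junctions without inserted bases.

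Leaving out each library in turn gave ranges of -175 to -114 (TRBV15) and -134 to -98.7 (TRBV16) in diversity, 1.85 to 2.64 and 1.52 to 3.38 points in the 10 largest clonotypes, and 0.225 to 0.347 and 0.143 to 0.250 in counts per clonotype. Diversity and the 10 largest clonotypes of both genes rose above an adjusted p of 0.05 without CNS4KO 4 or CNS4Flox 1, 2, 4 or 5, up to 0.111 and 0.148, with the direction kept. TRBV16 counts per clonotype did so without those and without CNS4KO 1 or 3, up to 0.111, and TRBV15 counts per clonotype passed without CNS4KO 2, CNS4KO 5 or CNS4Flox 3, down to 0.0222. In diversity of both genes without CNS4KO 4, the unadjusted exact p stayed at 0.00794. The same held for the 10 largest TRBV15 clonotypes without CNS4Flox 1, 2, 4 or 5. In these cases only the adjustment raised the p. Other ranges were -0.00406 to 0.0152 and -0.00641 to 0.0328 residues in length, -0.0380 to 0.0469 in TRBV16 inserted bases, -0.108 to 0.157 points in TRBV15 junctions without inserted bases, and 0.744 to 1.52 points in TRBV15 sharing. Within libraries they were -0.0665 to -0.0285 inserted bases for TRBV15 minus TRBV16, -0.0168 to 0.0102 and -0.0874 to -0.0434 counts per clonotype against other genes, -0.0175 to 0.102 points for TRBV15 minus other in junctions without inserted bases and -0.0107 to 0.00483 residues for TRBV16 minus other. TRBV16 counts per clonotype against other genes passed without CNS4KO 4, at -0.0874 with an adjusted p of 0.0117. Most clonotypes had a count of 1, which limits what depth can show of sharing and size.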
